A study of Arabidopsis thaliana with 20 samples.

Results

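The genes described here are the cytosolic class I and class II small heat shock proteins, the plastid small heat shock protein *HSP21*, the disaggregase *HSP101* and the seed heat shock factor *HSFA9*. The members were chosen by gene ID from their family and role and not by a rule on measured values. Earlier results of these data were known at that choice, and the members are 10 of the 37184 genes counted. They are *HSP17.4* (AT3G46230), AT1G53540, AT1G59860, AT1G07400 and AT2G29500 of cytosolic class I, *HSP17.6II* (AT5G12020) and *HSP17.6A* (AT5G12030) of class II, *HSP21* (AT4G27670), *HSP101* (AT1G74310) and *HSFA9* (AT5G54070).

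The study sequenced the 3' ends of polyadenylated RNA from 4 libraries of *msh-1* and 4 libraries of WT Arabidopsis. *msh-1* is a single T-DNA insertion line in which the transcriptional unit of *MUSHER*, a long non-coding RNA made downstream of the dormancy gene *DOG1*, is disrupted, and WT is the Col-0 accession. The labels give the material as siliques between 13 and 20 days after pollination, and the study's text calls it freshly harvested seeds. *MUSHER* itself was not analysed here.

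Small heat shock proteins bind unfolding proteins and keep them from clumping, and HSP101 pulls proteins out of aggregates together with HSP70. In most plant tissues both are made on heat stress, when heat shock factors bind heat shock elements in their promoters. During seed maturation a subset is made without heat, in a programme in which ABI3 acts on *HSFA9* and HSFA9 acts on chaperone genes. *HSP17.4* is the best known small heat shock protein of maturing Arabidopsis seeds.

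The promoters of *HSP17.4*, AT1G53540 and *HSFA9* are shown because they carry the elements of those 2 routes. A heat shock element was searched as GAANNTTC or TTCNNGAA, which is a pair of adjacent units, and as GAANNTTCNNGAA or TTCNNGAANNTTC, which is a run of 3 units and contains the pair. The RY element bound by ABI3-type factors was searched as CATGCA, and all motifs were searched on both strands in the 250 bases before the annotated start of each gene. The sequences are from the RefSeq TAIR10.1 genome, 5' to 3' on the strand of the gene. Capitals mark runs of 3 heat shock units and RY elements in *HSP17.4* (chr3:16984868-16985117, minus strand), the run of 3 heat shock units in AT1G53540 (chr1:19980049-19980298, plus strand) and the overlapping RY elements in *HSFA9* (chr5:21943733-21943982, plus strand).
HSP17.4: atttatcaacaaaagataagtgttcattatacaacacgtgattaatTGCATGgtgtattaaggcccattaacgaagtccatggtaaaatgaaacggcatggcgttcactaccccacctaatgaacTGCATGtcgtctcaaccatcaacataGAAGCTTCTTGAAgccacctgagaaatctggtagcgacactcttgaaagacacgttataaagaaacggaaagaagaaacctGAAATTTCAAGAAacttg
AT1G53540: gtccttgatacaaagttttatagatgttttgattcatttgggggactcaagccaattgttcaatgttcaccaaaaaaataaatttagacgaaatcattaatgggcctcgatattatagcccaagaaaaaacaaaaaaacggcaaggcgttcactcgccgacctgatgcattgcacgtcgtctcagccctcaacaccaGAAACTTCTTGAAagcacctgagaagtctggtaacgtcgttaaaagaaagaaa
HSFA9: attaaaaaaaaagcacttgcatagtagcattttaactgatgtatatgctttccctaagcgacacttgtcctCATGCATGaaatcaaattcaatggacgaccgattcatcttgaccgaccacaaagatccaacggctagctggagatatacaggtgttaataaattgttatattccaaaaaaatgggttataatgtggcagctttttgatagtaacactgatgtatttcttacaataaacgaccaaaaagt

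*HSP17.4* held both kinds of element. Its runs of 3 heat shock units began 99 and 18 bases before the gene start, and its RY elements began 204 and 125 bases before it. In AT1G53540 the run began 53 bases before the start, and no RY element was matched. *HSFA9* showed the opposite content, with RY elements that began 179 and 177 bases before the start and no heat shock element of either kind. Over all 27443 protein-coding genes, 0.386% held a run of 3 heat shock units in a window of this length, 16.1% held at least a pair and 8.43% held an RY element. Among the members, 2 of 10 held the run, 4 of 10 held at least the pair and 4 of 10 held an RY element. The other members with a pair were *HSP17.6A* and *HSP21*, and those with an RY element were AT1G59860 and *HSP17.6II*. In the 500 bases before the start codon, which include untranslated bases, at least a pair was matched in 9 of 10 members, the exception being *HSFA9*, against 33.9% of all genes. There 2 of 10 held the run (1.20% of all genes) and 4 of 10 an RY element (14.3%). The core of the abscisic acid response element, ACGTG, was searched too. It was matched in 3 of 10 members in the 250-base window (22.9% of all genes) and in 4 of 10 in the 500-base window (34.9%). A match describes the letters only, and binding was not measured here.

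The cytosolic small heat shock protein genes have 1 exon and code for 153 to 157 residues. *HSP21* has 2 exons and codes for 227 residues, *HSFA9* has 3 exons and codes for 331, and *HSP101* has 6 exons and codes for 911. *HSP17.6II* (chr5:3882231-3883111 in TAIR10.1) and *HSP17.6A* (chr5:3883957-3884838) lie 845 bases apart on the same strand and share 87.7% of their aligned coding bases. The closest coding sequences among the members were those of AT1G59860 and AT1G07400, at 90.3% identity, and *HSP17.4* and AT1G53540 shared 85.6%. No stretch shared between transcripts of 2 of these small heat shock protein genes was longer than 43 bases.

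For the chaperone members no exact copy of 50 bases was found elsewhere near the transcript end, where 3' reads fall. In the last 500 transcript bases of each, 0 of 451 words of 50 bases occurred elsewhere in the nuclear genome. Inexact copies were not searched. *HSFA9* differed, since 86 of its 451 words, or 19.1%, occurred at other loci, among them the U3 small nucleolar RNA gene *U3B*, and the snoRNA gene *U3D* (AT5G54075) overlaps *HSFA9* on the opposite strand. *U3D* was counted at 1 to 10 per library, which is at most 0.647% of the *HSFA9* count. The antisense lncRNA AT3G07365, which overlaps *HSP17.4*, had 9 to 70 counts per library, at most 0.393% of the *HSP17.4* count. The genes AT3G46220 and AT1G74300, which overlap *HSP17.4* and *HSP101* on the opposite strand, had at most 0.523% and 0.397% of the counts of those members. A strand setting for the counting is not given in the sources used here, so reads of a gene and of its antisense partner cannot be told apart.

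Depth and tissue set the frame for the values. Levels are given as CPM, the count divided by the library's effective total and scaled to the same total in every library. Total counts were 2590800 to 6500907 in *msh-1* libraries and 959004 to 2498295 in WT libraries, so every *msh-1* library was deeper than every WT library. Embryo maturation genes (storage proteins, oleosins and Em proteins, 12 genes) summed to 90214 to 105810 CPM in *msh-1* and to 103414 to 107636 CPM in WT. Only the storage protein gene *SESA4* among them was called (log2 fold change -0.73, adjusted p = 0.0457 by the quasi-likelihood test of edgeR). By that test 3 of the 12 had an unadjusted p under 0.05 (8.48% of all genes tested did). These were *SESA4*, *SESA5* (-0.56, adjusted p = 0.0933) and *SESA3* (-0.33, adjusted p = 0.492). *SESA4* and *SESA5* did not overlap between the genotypes (4.76% of all genes tested did not). Over the 12, 3 log2 fold changes were positive and 9 negative. *SESA4* is in a gene table that the study drew from these same samples. Green tissue genes (11 genes) summed to 51.0 to 171 CPM in *msh-1* and to 20.8 to 125 CPM in WT, with *RBCS1A*, *CAB1* and *RCA* highest, and 0 of the 8 tested were called. Of these 8, 4 had an unadjusted p under 0.05 by edgeR, beside 8.48% of all genes tested. Their log2 fold changes were positive for *CAB2* (1.83), *CAB1* (1.38) and *RBCS3B* (2.26) and negative for *RCA* (-1.68). Of the 8 tested, *CAB2* and *RBCS3B* did not overlap between the genotypes, beside 4.76% of all genes tested. Of the genes that did not pass the filter, *CAB3* did not overlap either, at 2.29 to 10.5 CPM in *msh-1* and 0 to 0.837 CPM in WT. *RBCS2B* and *RBCS1B* overlapped, with means of 4.47 and 2.63 CPM in *msh-1* and 0.493 and 0.597 CPM in WT. Of the seed coat and endosperm markers, *EPR1* was abundant and *MUM4* and *TT10* came next at under 5 CPM, whereas *TT8*, *TT12* and *TTG2* stayed under 1 CPM in every library. WT replicate 4, the shallowest library, and *msh-1* replicate 1, the deepest, had the lowest summed green tissue levels of all, and results were also computed without these 2 libraries. In such bulk RNA, fewer cells of a type and less RNA per cell cannot be told apart.

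Together the 10 members took 1.01% to 1.56% of all counts in *msh-1* and 1.35% to 1.48% in WT. Their summed level was 13518 ± 2634 CPM in *msh-1* and 14229 ± 888 CPM in WT (SD, n = 4 each). *HSP17.6A* and *HSP17.4* alone made up 88.9% to 90.7% of the members' counts in *msh-1* and 89.7% to 91.0% in WT. Since 3' sequencing yields reads from the transcript's end and not along its length, CPM values of different genes were compared without a length correction.

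*HSFA9*, the heat shock factor of the seed programme, was the most abundant heat shock factor transcript. It was at 520, 389, 430 and 453 CPM in *msh-1* replicates 1 to 4, against 386, 426, 427 and 524 CPM in WT replicates 1 to 4. The genotypes overlapped fully, with the highest value in WT replicate 4 and the lowest in WT replicate 1. The fitted log2 fold change of *HSFA9* was 0.03 (SE, the standard error, 0.11, 95% interval -0.20 to 0.26, adjusted p = 0.989 by the quasi-likelihood test of edgeR). That interval corresponds to 0.871-fold to 1.20-fold.

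Within class I, *HSP17.4* was by far the highest. It had 5989, 3550, 4872 and 5287 CPM in *msh-1* replicates 1 to 4, against 5102, 5455, 5250 and 5235 CPM in WT replicates 1 to 4. The WT libraries lay within a narrow band, and *msh-1* held both the highest and the lowest value. Its log2 fold change was -0.09 (SE 0.12, 95% interval -0.35 to 0.16, adjusted p = 0.890). Averaged over the 8 libraries, *HSP17.4* stood 20.5-fold above AT1G53540, its nearest relative among the members.

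AT1G53540 was at 276, 191, 247 and 261 CPM in *msh-1* and at 243, 230, 250 and 288 CPM in WT. Its libraries overlapped as well, with *msh-1* replicate 2 lowest, and the log2 fold change was -0.04 (SE 0.11, adjusted p = 0.981). AT2G29500 had 146, 81.8, 147 and 147 CPM in *msh-1* and 166, 151, 142 and 162 CPM in WT. Here 3 of the *msh-1* libraries lay together and beside the lowest WT library, while *msh-1* replicate 2 lay far below. The log2 fold change of AT2G29500 was -0.24 (SE 0.16, 95% interval -0.57 to 0.10, adjusted p = 0.734), and -0.074 without *msh-1* replicate 2.

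The remaining class I members were low. AT1G07400 had 46.4, 35.9, 56.0 and 48.8 CPM in *msh-1* and 45.4, 48.1, 41.2 and 47.1 CPM in WT, with a log2 fold change of 0.05 (SE 0.13, adjusted p = 0.971). All 4 WT values of AT1G07400 fell between the extremes of *msh-1*. AT1G59860, the closest relative of AT1G07400, was near the detection limit, with 25, 6, 12 and 19 counts in *msh-1* replicates 1 to 4 and 4, 10, 8 and 6 counts in WT replicates 1 to 4. These counts correspond to 2.29 to 4.50 CPM in *msh-1* and 3.08 to 6.57 CPM in WT. AT1G59860 did not pass the filter on low counts, and an exact two-sided permutation test of its log2(CPM + 0.5) gave p = 0.6 (n = 4 each). *HSP18.2* (AT5G59720), a class I gene outside the member list and a heat-induced gene in other tissues, had 2, 0, 0 and 2 counts in *msh-1* and 1, 3, 1 and 1 counts in WT, all at or under the 3 counts taken as the floor.

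Class II consists of a tandem pair with very different levels. *HSP17.6A* was the most abundant member, at 8759, 5331, 7183 and 7753 CPM in *msh-1* replicates 1 to 4 and 7632, 6993, 7144 and 8712 CPM in WT replicates 1 to 4. The highest and the lowest libraries of *HSP17.6A* were both *msh-1*, and its log2 fold change was -0.07 (SE 0.12, 95% interval -0.34 to 0.20, adjusted p = 0.940). Its neighbour *HSP17.6II* had 34.7, 14.1, 26.9 and 23.9 CPM in *msh-1* and 22.3, 31.4, 26.4 and 51.5 CPM in WT. *msh-1* replicate 2 was the lowest library of *HSP17.6II* and WT replicate 4 the highest, and the other 6 overlapped. The log2 fold change of *HSP17.6II* was -0.28 with a wide 95% interval of -0.83 to 0.27 (SE 0.25, adjusted p = 0.823). It was -0.079 without WT replicate 4 and -0.48 without *msh-1* replicate 1. On average the *HSP17.6A* level was 257-fold that of *HSP17.6II*, and 169-fold to 377-fold in single libraries.

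**Figure D1:**
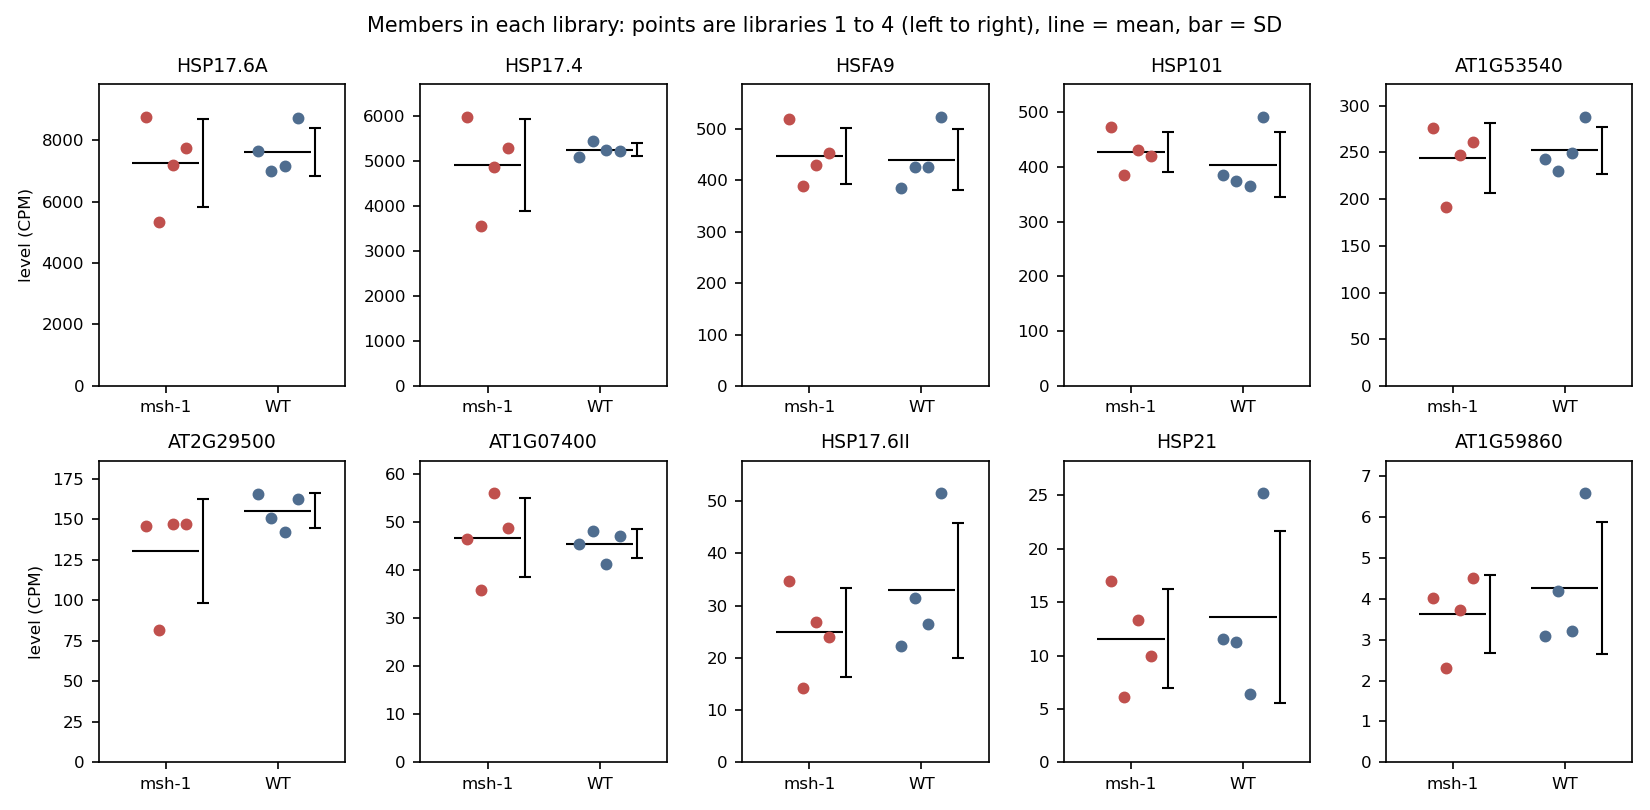
Level in CPM (linear axes from 0) of each of the 10 members in the 4 *msh-1* libraries (left, red) and the 4 WT libraries (right, blue), with points for replicates 1 to 4 from left to right, a line at the mean and a bar for 1 SD. In every panel the genotypes overlap, and *msh-1* replicate 2 is the lowest *msh-1* point, for example 81.8 CPM for AT2G29500.

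*HSP21*, the small heat shock protein of plastids, was scarce. It was at 17.0, 6.12, 13.3 and 9.94 CPM in *msh-1* and at 11.6, 11.3, 6.40 and 25.2 CPM in WT, from 15 to 106 counts per library. WT replicate 4 was well above all other libraries, and the log2 fold change was 0.03 with a 95% interval of -0.73 to 0.79 (SE 0.35, adjusted p = 1.00). *HSP101*, the cytosolic disaggregase, had 473, 385, 431 and 419 CPM in *msh-1* and 385, 375, 365 and 492 CPM in WT. In 3 of the 4 WT libraries *HSP101* lay below the lowest *msh-1* library, by less than 1 CPM in WT replicate 1, whereas WT replicate 4 was the highest of all. The log2 fold change of *HSP101* was 0.09 (SE 0.10, 95% interval -0.13 to 0.31, adjusted p = 0.876). It was 0.19 without WT replicate 4 and 0.040 without WT replicate 3.

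Over all 8 libraries the mean levels spanned 1886-fold. The order was *HSP17.6A*, *HSP17.4*, *HSFA9*, *HSP101*, AT1G53540, AT2G29500, AT1G07400, *HSP17.6II*, *HSP21* and AT1G59860. *HSP17.6A* was above *HSP17.4* in 8 of 8 libraries, by 1.46-fold in the mean, although their ranges over libraries overlapped. *HSFA9* and *HSP101* were close, with means 1.07-fold apart, overlapping ranges and *HSFA9* higher in 7 of 8 libraries. The ranges of AT1G07400 and *HSP17.6II*, of *HSP17.6II* and *HSP21*, and of *HSP21* and AT1G59860 overlapped too, whereas the other neighbours did not. Among the genes counted, *HSP17.6A* ranked 20 and *HSP17.4* ranked 30 by mean level.

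None of the tested members was called different between the genotypes, where a call required an adjusted p under 0.05 with a fold change above 1.5. Called were 0 of the 9 members tested, where 0.413% of the 10902 genes tested were called (45 genes, of which 11 had higher and 34 had lower levels in *msh-1*). By edgeR's quasi-likelihood test 0 of the 9 had an unadjusted p under 0.05 (8.48% of all genes tested did), 4 had a positive and 5 a negative fold change, and DESeq2 and limma-voom called 0 as well. The median log2 fold change of the 9 was -0.04, beside -0.01 over all genes tested. Exact two-sided permutation tests of the 10 single members gave p from 0.2 to 0.857, where 0.0286 is the smallest that 4 libraries against 4 allow. A missed threshold does not show equal levels. For 7 of the 9 the 95% interval stayed within a 1.5-fold change either way, and for *HSP17.6II* (0.564-fold to 1.20-fold) and *HSP21* (0.602-fold to 1.73-fold) it did not.

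**Figure D2:**
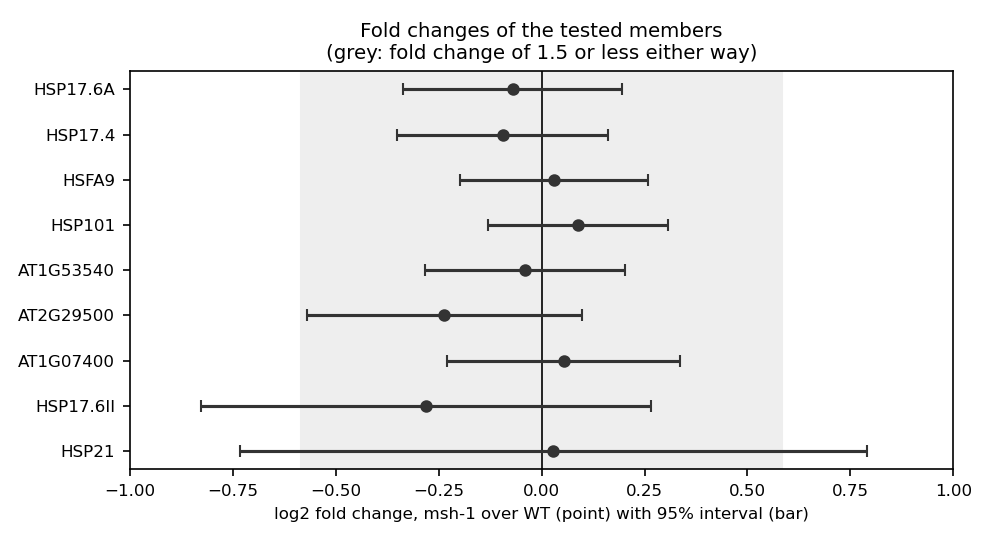
Log2 fold change of *msh-1* over WT (horizontal axis) of the 9 tested members from edgeR's quasi-likelihood fit, with bars for the 95% interval and a grey band for fold changes of 1.5 or less either way. All 9 bars include 0, and the bars of *HSP17.6II* and *HSP21* reach beyond the band.

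Without WT replicate 4 and *msh-1* replicate 1, again 0 of 9 members were called, where 2.53% of the 11088 genes tested were called. The members' log2 fold changes then lay between -0.30 for *HSP17.6II* and 0.14 for *HSP101*. *HSP17.4* was the single member of the 9 with an unadjusted p under 0.05 (13.0% of all genes tested had one), at a log2 fold change of -0.20 (SE 0.10, adjusted p = 0.375 by the quasi-likelihood test of edgeR). Without *msh-1* replicate 2 instead, its log2 fold change was 0.03.

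The tested members all deviated in 1 direction in *msh-1* replicate 2, in *msh-1* replicate 1 and in WT replicate 4. In *msh-1* replicate 2 the tested members lay at a median of -0.47 on the log2 scale relative to their means over the 8 libraries. They lay at 0.23 in *msh-1* replicate 1 and at 0.24 in WT replicate 4, and between -0.04 and 0.07 in the other 5 libraries, while the median over all tested genes stayed between 0.00 and 0.02. *msh-1* replicate 2 was the lowest *msh-1* library in 9 of the 9 tested members, against 28.9% of all tested genes. WT replicate 4 was the highest WT library in 6 of the 9, against 32.8% of all tested genes. Of all libraries, *msh-1* replicate 1 was the deepest and WT replicate 4 the shallowest. Summed green tissue genes were at 51.0 and 20.8 CPM in these 2 libraries, lower than in the other 6, and at 153 CPM in *msh-1* replicate 2. Whether depth, tissue composition or harvest stage had a part in the members' levels was not tested.

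**Figure D3:**
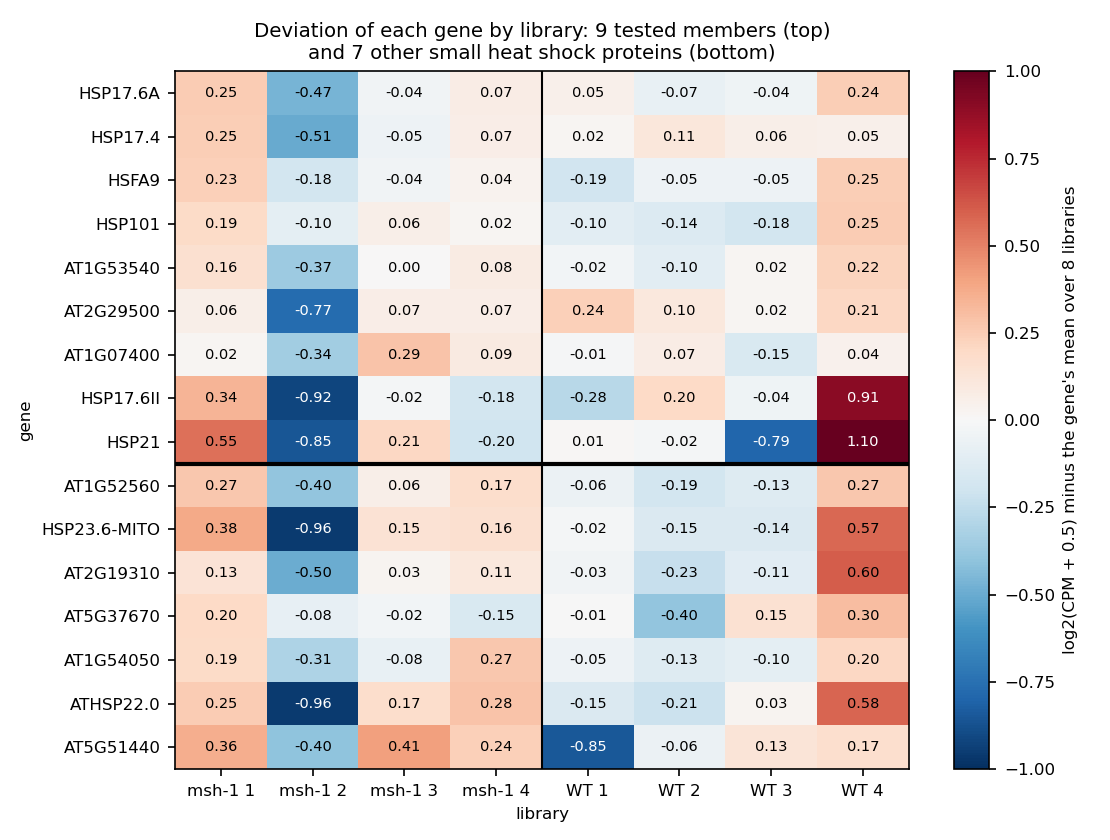
Each cell gives log2(CPM + 0.5) of a gene (rows, members above the thick line and other small heat shock protein genes below it) in a library (columns, *msh-1* left of WT) minus that gene's mean over the 8 libraries. The column of *msh-1* replicate 2 is negative in all 16 rows, from -0.08 for AT5G37670 to -0.96 for *ATHSP22.0*, and the column of WT replicate 4 is positive in all 16.

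Over the 8 libraries the log2 levels of the 9 tested members correlated positively in 36 of 36 pairs (Pearson r 0.29 to 0.97, median 0.73). Over the 6 libraries left without WT replicate 4 and *msh-1* replicate 1 they did so in 35 of 36 pairs (median 0.66). These 6 still include *msh-1* replicate 2, where the members' median deviation was -0.47. Over the 6 libraries the pairs of *HSP101* ranged from r = -0.006 with *HSP17.4* to 0.66 with AT1G07400. Libraries of 1 genotype share that genotype, every *msh-1* library was deeper than every WT library, and the values are a description only. *HSFA9* correlated most with *HSP101* (r = 0.86), *HSP17.6II* (r = 0.83) and AT1G53540 (r = 0.81) and least with AT1G07400 (r = 0.35) over the 8 libraries. Over the 6 libraries the value was 0.42 for *HSP101*, 0.62 for *HSP17.6II*, 0.66 for AT1G53540 and 0.58 for AT1G07400. *HSP21* was then the lowest, at 0.24. By rank correlation (Spearman) over the 8 libraries AT1G53540 was the highest, at 0.90, and AT2G29500 the lowest, at 0. The order thus changed with the measure and the libraries.

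The other small heat shock protein genes showed the same library pattern. Of 9 such genes, 7 were tested and 0 were called, with a median log2 fold change of 0.00 (range -0.10 to 0.31). The highest were AT1G52560, *HSP23.6-MITO* (AT4G25200), which encodes a mitochondrial small heat shock protein, and AT2G19310. *HSP23.6-MITO* was at 269, 106, 229 and 231 CPM in *msh-1* and 204, 187, 187 and 308 CPM in WT. AT1G52560 was at 249 to 395 CPM in *msh-1* and 289 to 397 CPM in WT, and AT2G19310 at 126 to 195 CPM in *msh-1* and 151 to 271 CPM in WT. Of the 7, *msh-1* replicate 2 was the lowest *msh-1* library in 6 and WT replicate 4 the highest WT library in 7.

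Among the other heat shock factors none approached *HSFA9*. *HSFA9* made up 64.2% to 70.2% of the summed CPM of 21 heat shock factor genes in *msh-1* and 66.2% to 70.1% in WT. The next factor, *HSF3* (AT5G16820, a class A1 factor of the general heat response), was at 44.3 to 48.9 CPM in *msh-1* and 38.9 to 52.6 CPM in WT, so *HSFA9* was 7.95-fold to 11.1-fold above it in single libraries. *HSFA1E* was at 35.6 to 48.9 CPM in *msh-1* and 38.5 to 46.9 CPM in WT. *HSFA2*, the factor most strongly induced by heat in leaves, was at 5.62 to 7.65 CPM in *msh-1* and 4.38 to 10.8 CPM in WT. No read of *HSFA6A* or *HSFB3* was counted in any library.

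Of the 20 other heat shock factor genes, 12 were tested and 0 were called, and their median log2 fold change was -0.01. The class C factor gene *HSFC1* (AT3G24520) had 34.8, 29.8, 31.5 and 32.0 CPM in *msh-1* and 16.9, 23.4, 16.8 and 32.9 CPM in WT. In WT replicates 1 to 3 *HSFC1* lay below every *msh-1* library, and in WT replicate 4 it lay among them. Its log2 fold change was 0.59 (SE 0.17, adjusted p = 0.234 by the quasi-likelihood test of edgeR) over all libraries. Without WT replicate 4 it was 0.74 (adjusted p = 0.0246 by the same test), where 141 of 11268 genes tested were called. Without that library and *msh-1* replicate 1 it was 0.69 (adjusted p = 0.0136), where 280 of 11088 were called. With no filter on low counts it was called over all 8 libraries too (0.62, adjusted p = 0.00773), where 438 of 23032 were called. The other alternatives, among them DESeq2, limma-voom and the replicate block, called 0 of the 20.

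**Figure D4:**
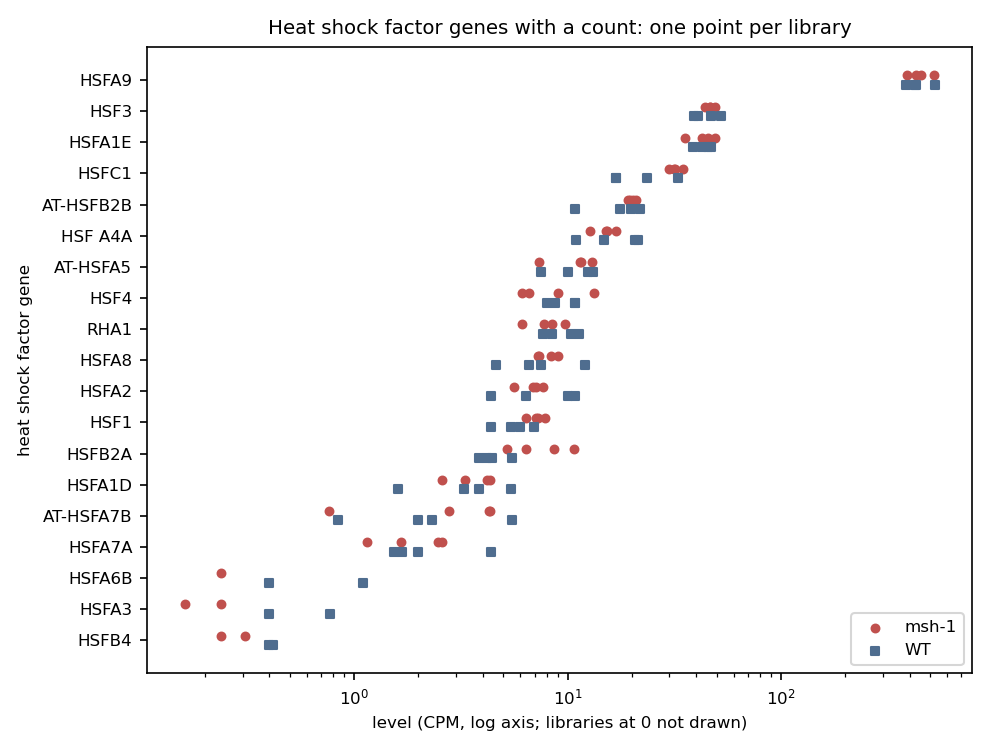
Level (CPM, log axis) of the 19 heat shock factor genes with a count, ordered by mean, with 1 point per *msh-1* library (red circles, upper) and per WT library (blue squares, lower) and libraries at 0 left out. *HSFA9* stands alone at 386 to 524 CPM, and for *HSFC1* 3 of the 4 WT points lie left of all *msh-1* points.

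The chaperone partners of HSP101 and the small heat shock proteins were not low as a list in *msh-1* replicate 2. Of 23 genes for HSP70, HSP90, HSP100 and co-chaperones, 21 were tested and 0 were called, with a median log2 fold change of 0.00. *Hsp70b* (AT1G16030) was at 2022 to 2134 CPM in *msh-1* and 2099 to 2189 CPM in WT, and *HSP70* (AT3G12580) at 1037 to 1180 CPM in *msh-1* and 992 to 1133 CPM in WT. *HSP90.1* (AT5G52640) was at 748, 510.5, 712 and 609 CPM in *msh-1* and 715, 682, 715 and 755 CPM in WT. In *msh-1* replicate 2 the median deviation of this list from the genes' means was 0.04 on the log2 scale, beside -0.47 for the members, and *msh-1* replicate 2 was the lowest *msh-1* library in 4 of the 21.

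The other heat response genes resembled the members in their library pattern. Of 10 genes, 9 were tested and 0 were called, and *msh-1* replicate 2 was the lowest *msh-1* library in 8 and WT replicate 4 the highest WT library in 8. The most abundant was *GolS1* (AT2G47180), the galactinol synthase of raffinose synthesis, at 509, 369, 469 and 488 CPM in *msh-1* and 396, 442, 439 and 552 CPM in WT. *DREB2A* (AT5G05410), a transcription factor of drought and heat responses, was at 363 to 398 CPM in *msh-1* and 314 to 362 CPM in WT, and *HSA32* (AT4G21320), needed for long-term acquired heat tolerance, at 82.2 to 118 CPM in *msh-1* and 93.7 to 146 CPM in WT. *DREB2A* was the only gene of the 9 whose genotypes did not overlap (log2 fold change 0.14, adjusted p = 0.656), while the genotypes did not overlap in 4.76% of the 10902 genes tested.

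Of 6 seed maturation factor genes, which include *ABI3* upstream of *HSFA9*, 3 were tested and 0 were called. *ABI3* (AT3G24650) was at 55.7 to 66.9 CPM in *msh-1* and 56.1 to 71.6 CPM in WT (log2 fold change -0.06, adjusted p = 0.953). *ABI5* (AT2G36270), a bZIP factor of abscisic acid signalling, was at 499.8 to 592 CPM in *msh-1* and 518 to 581 CPM in WT (log2 fold change -0.01, adjusted p = 1.00). *FUS3* (AT3G26790), a B3 factor of earlier maturation, was at 2.68 to 6.19 CPM in *msh-1* and 1.54 to 5.48 CPM in WT.

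The genes whose log2 levels tracked the mean of the tested small heat shock protein members most closely over the 8 libraries were AT1G09280 (r = 0.994), AT3G04750 (r = 0.994), AT2G37200 (r = 0.981), *HSP23.6-MITO* (r = 0.973) and AT1G03270 (r = 0.966). For *HSFA9* they were AT4G25730 (r = 0.979), AT4G07408 (r = 0.971), AT5G05250 (r = 0.970), *MBF1B* (r = 0.968) and *ROC7* (r = 0.965). AT1G09280 and AT3G04750 were low, with means of 10.4 and 4.58 CPM, where the floor of 3 counts was 3.29 CPM in WT replicate 4. With 10902 genes and 8 libraries such values describe a ranking. Only 2 of these 10 genes stayed in the leading 5 when WT replicate 4 and *msh-1* replicate 1 were left out.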

How the data were processed

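Polyadenylated RNA was primed with oligo(dT), pooled, tagmented and sequenced from the 3' fragments. The authors aligned the reads to TAIR10 with STAR 2.7.8a and deposited raw counts per gene, 1 file per library, with no normalisation. Which annotation and strand setting were used, and whether molecular identifiers entered the counts, is not given in the sources used here.

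Groups were taken from the sample labels. Counts were scaled by TMM to CPM and tested with edgeR 4.0.16 (R 4.3.3) by the quasi-likelihood test, with the default filter (minimum count 10) and Benjamini-Hochberg adjustment over the 10902 genes passing it. The call required both an adjusted p under 0.05 and a change of more than 1.5-fold. Single members were tested by exact permutation of log2(CPM + 0.5). DESeq2 1.42.0, limma 3.58.1 (voom), other scalings and filters, equal depth, a replicate block and left-out libraries were alternatives. The fit was tested on simulated counts.

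The members and the gene lists were chosen with earlier results of these data known. The text names the 10 members, the called genes or else the 3 highest of each list, and the 5 genes most correlated with the small heat shock proteins and with *HSFA9*. *HSP18.2*, *HSFA2*, *HSFA6A*, *HSFB3*, *U3B*, *U3D*, AT3G07365, AT3G46220, AT1G74300, *ATHSP22.0*, AT5G37670, *SESA3*, *SESA5*, *CAB2*, *CAB3*, *RBCS3B*, *RBCS2B*, *RBCS1B*, *TT8*, *TT12* and *TTG2* were named after their values were seen. Gene names came from RefSeq TAIR10.1, in which 36899 of 37184 IDs were matched, and coordinates and promoters are of that build. The labels call the samples biological replicates without stating separate plants, so p-values measure the spread between these libraries. Intervals cover that spread, and floors cover counting error only. Samples of the chromatin assays (ChIRP and ChIDP) were not analysed here.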

Additional observations from a re-analysis of the deposited data

Results flagged for a closer look

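In 2 of 22 groups of 4 libraries examined (each member and the members' sum in each genotype), 1 library lay far from the other 3 by Dixon's criterion. Chance flags about 1 in 20 such groups. AT2G29500 was at 81.8 CPM in *msh-1* replicate 2, while the other *msh-1* libraries were at 146 to 147 CPM. *HSP101* was at 492 CPM in WT replicate 4, while the other WT libraries were at 365 to 385 CPM.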

How the results depend on the processing

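The members gave 0 calls under all 17 alternatives, and 159 alternative values of their log2 fold changes held 0 calls, with a smallest adjusted p of 0.375. Of these values 144 kept their sign and 15 turned it. Leaving out 1 library gave -0.20 to 0.035 for *HSP17.4*, -0.095 to 0.060 for AT1G53540, -0.22 to 0.040 for AT1G59860, -0.17 to 0.054 for *HSP17.6A* (each highest, and turned in sign, without *msh-1* replicate 2), -0.033 (without *msh-1* replicate 3) to 0.15 for AT1G07400, -0.27 (without WT replicate 3) to 0.36 for *HSP21* and -0.042 (without *msh-1* replicate 1) to 0.12 for *HSFA9*. The members that kept their sign lay between -0.29 and -0.074 (without *msh-1* replicate 2) for AT2G29500, -0.48 (without *msh-1* replicate 1) and -0.079 (without WT replicate 4) for *HSP17.6II*, and 0.040 (without WT replicate 3) and 0.19 (without WT replicate 4) for *HSP101*. *HSP21* also turned with DESeq2 (-0.12) and with the replicate block (-0.12). AT1G59860 was at -0.05 without a filter. The cause was not tested. At equal depth *HSP21* could not be fitted in every draw and AT1G59860 in none of the fits with the default filter over 8 libraries.

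The 45 genes called in all became 438 with no filter, 84 with a minimum count of 3, 88 with DESeq2, 24 with limma-voom, 25 with library totals, 12 at equal depth (median of 11 draws) and 280 without WT replicate 4 and *msh-1* replicate 1. With single libraries left out the count lay between 4, when WT replicate 3 was absent, and 210, when *msh-1* replicate 1 was absent. The replicate block gave 24. Deviations from the genotype means correlated at -0.22, 0.15, 0.06 and -0.09 between same-numbered libraries. Whether the numbers mark a shared harvest or batch cannot be told from so few libraries. Of the other heat shock pathway genes, 1 was called with no filter, 1 without WT replicate 4 (leaving out 1 library gave 0 to 1) and 1 without both libraries, in each case *HSFC1*. Of the 10 genes most like the members, 2 remained without both libraries. *HSP21*, *HSP17.6II* and AT1G59860 are limited by their counts, which reached down to 15, 29 and 4 per library.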
